A study of Bos taurus with 6 samples.

Results

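The genes described here encode enzymes of purine and pyrimidine nucleotide metabolism, and they were chosen by name: 37 genes, each taken through the microarray probes that carry its symbol in the platform annotation. Of these 37 genes, 31 had a probe and 27 could be tested, out of 9217 genes tested in all. The study compared bovine cumulus cells, the somatic cells that surround the oocyte, at 2 times. The reference cells (0 h) were stripped mechanically from cumulus-oocyte complexes before culture, and the other cells came from complexes kept for 6 h in in vitro maturation medium. The complexes were aspirated from ovaries of Holstein cows collected at a slaughterhouse. The medium was TCM-199 with serum, estradiol, pyruvate and gentamicin, and no gonadotropin is named in it. Each of 3 biological replicates was run as a dye swap on 2 dual-colour arrays, 6 in all, and each array compared both times of 1 replicate. The sources used here do not give the number of animals behind a replicate, so p-values measure only the spread between these 3 samples.

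Purine nucleotides are built on phosphoribosyl pyrophosphate (PRPP), a sugar phosphate that a chain of enzymes turns into inosine monophosphate (IMP), the precursor of both AMP and GMP. Pyrimidines are assembled first as a ring and then joined to PRPP to give UMP, from which the cytidine nucleotides follow. Salvage enzymes recover free bases and nucleosides, and nucleotidases, deaminases and phosphorylases take nucleotides apart. In mice, guanine nucleotides of follicle cells feed cyclic GMP, which passes through gap junctions and holds the oocyte in meiotic arrest, and adenosine and hypoxanthine of the follicle act in the same setting.

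Every value below is a log2 ratio of 6 h over 0 h unless it is called a level, so a ratio of 1 is a doubling of the signal. Levels are log2 intensities after normalisation, and they are compared only within a probe, except where they are summed over a marker list. Such a sum is governed by the brightest probes of its list. Between 41.3% and 84.3% of probes exceeded the negative controls per array and time. Ratios correlated at r = 0.79 to 0.85 within dye swaps and at r = 0.74 to 0.86 between replicates; these correlations run across tested probes, and probes are no replicates. Of 10 granulosa markers, 9 were above background on all 6 arrays at 0 h and 8 at 6 h. FSHR, CYP19A1 and NR5A2 were so at both times, but were called lower, at -1.51, -1.44 and -1.83. In all, 6 of 9 tested granulosa markers were called lower, against 18.0% of all genes. The leukocyte marker CD68, called higher (1.27, adjusted p = 0.0050), and the red cell marker HBA were above background on all 6 arrays at both times. The leukocyte markers PTPRC and CD3E exceeded background on 6 and 4 arrays at 0 h, and on 5 and 6 at 6 h. PTPRC was brighter in replicate 1, at levels of 10.11 and 10.32, than in replicates 2 and 3, at 7.13 to 7.38. The summed linear level of the leukocyte list was 1805 at 0 h and 2556 at 6 h in replicate 1. In replicates 2 and 3 it lay between 851 and 1097. The leukocyte list and the endothelial and red cell list each held 6 genes with a probe, of which 3 and 1 were tested. At the brightest probe of each gene, only 1 gene of each list was above background on no array, CSF1R and PECAM1. In a bulk sample, fewer cells of a type and less RNA per cell cannot be told apart.

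Genes of nucleotide metabolism moved in both directions between 0 h and 6 h. Among the 27 tested members, 5 were higher at 6 h (PRPS1, ADSL, UMPS, UCK2 and NT5E) and 6 were lower (IMPDH1, GMPS, CTPS2, ADK, DCK and NT5C2), by limma's moderated test with Benjamini-Hochberg adjustment over all 9217 genes and a threshold of 0.05. The called members made up 40.7% of those tested, against 35.2% of all genes, so their number is near the background. The share called higher was 18.5% against 17.2%, and the share called lower was 22.2% against 18.0%. All 11 called members were above background on all 6 arrays at both times, where 1 ignored spot of ADK was counted as above. Each also had 1 sign on every array used, which the call itself favours. PRPS1 and NT5E reached a 2-fold change. The median over tested members was -0.01, with 0.10, -0.07 and 0.02 in replicates 1, 2 and 3, beside -0.02 for all genes.

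The 16 members tested and not called had ratios from -0.39 to 0.68. For 10 of them the replicates differed in sign, and for 8 the mean ratio was smaller than 0.1 in size. Without replicate 2 the counts were 2 higher and 2 lower, and 4 of the 11 calls were kept. Without replicate 3 they were 3 higher and 2 lower, and 5 calls were kept. Over all genes, 18.4% and 21.8% were called in those fits.

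**Figure D1:**
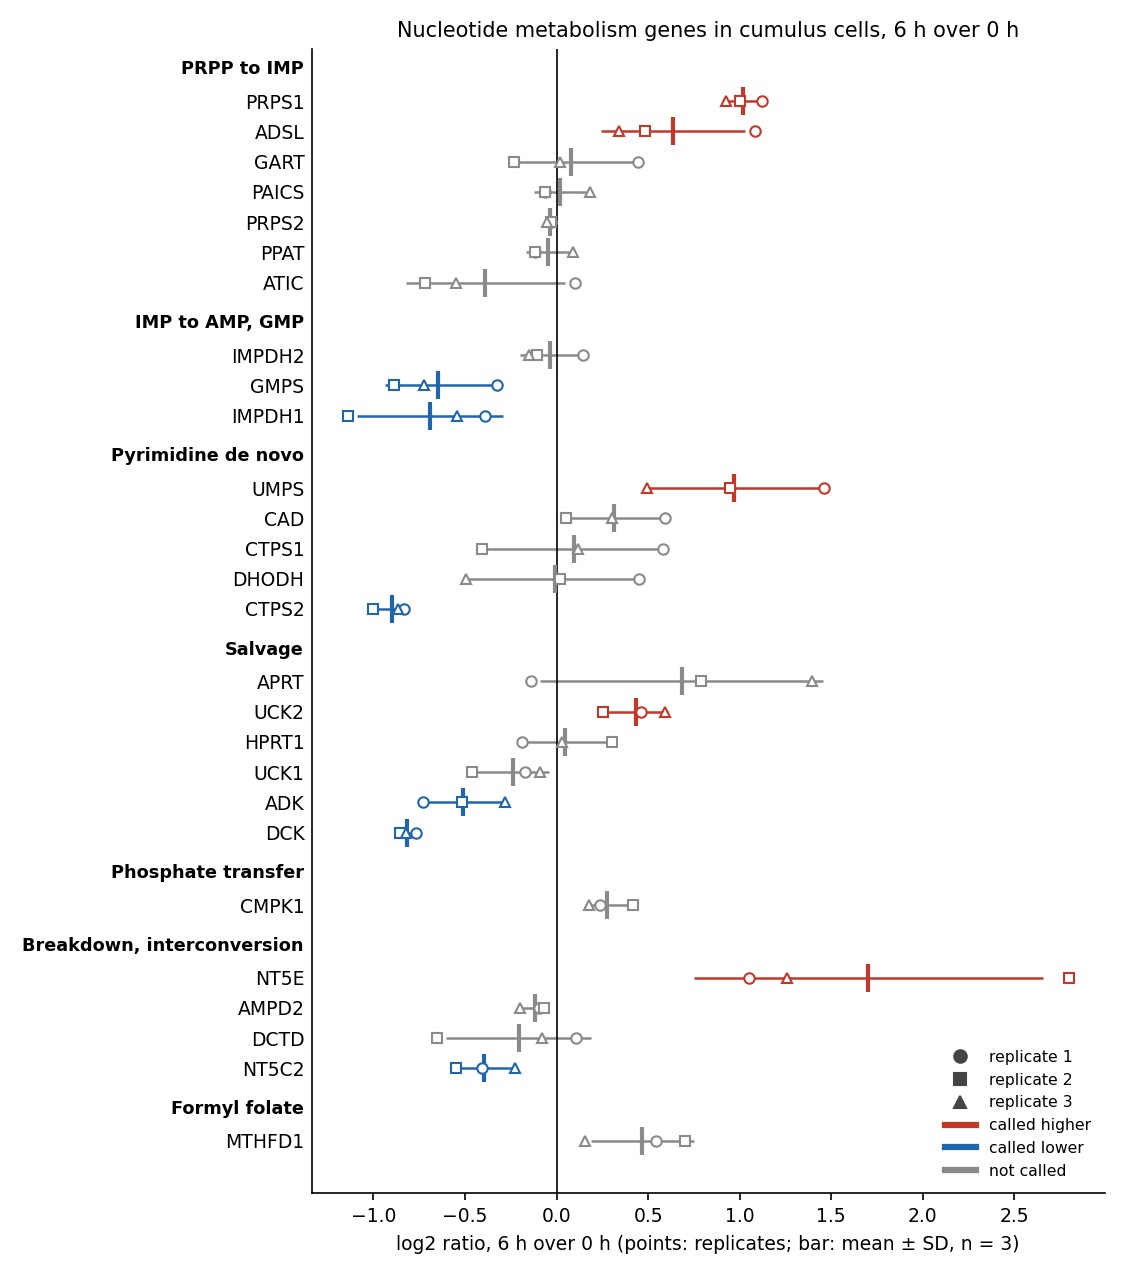
Log2 ratio of 6 h over 0 h (x axis) for the 27 tested genes of nucleotide metabolism, grouped by role. Open symbols are the 3 replicates, the thick tick is their mean, the bar spans ± 1 SD, and colour marks genes called higher or lower. NT5E has the highest mean, at 1.70, and CTPS2 the lowest, at -0.90.

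The PRPP synthetase gene PRPS1 (probe EMBV3_16650), whose enzyme makes the sugar phosphate from which purines and pyrimidines start, doubled. Its levels at 0 h were 10.85, 11.56 and 11.00 in replicates 1, 2 and 3, and at 6 h they were 11.97, 12.56 and 11.92. All 6 h levels lay above all 0 h levels. The ratios of 1.12, 1.00 and 0.93 gave a mean of 1.02 ± 0.10 (SD, n = 3, limma adjusted p = 0.0028), or 2.03-fold. The isoform PRPS2 had -0.04 ± 0.01, with no replicate outside -0.05 to -0.03 (adjusted p = 0.81). The PRPS2 probe was dim: its highest raw intensity was 307, against negative control means of up to 203. The offset added in background correction draws ratios of dim probes towards 0, so a change of PRPS2 could be understated. PRPS1 exceeded PRPS2 by 1.06 ± 0.09 in log2 ratio, higher in 3 of 3 replicates. An exact two-sided sign-flip permutation test gave p = 0.25, which is the smallest value that 3 replicates allow, and 0.25 after adjustment over the 5 pairs of genes compared. PRPSAP1, a partner protein known from rat and human to bind and restrain PRPP synthetase, was lower at -0.61 ± 0.09 (adjusted p = 0.0102). With the arrays kept apart and the replicate as a block its adjusted p was 0.0837, and without replicate 2 it was 0.0641. The call of PRPSAP1 was also lost with 6 h RNA in Cy3 only and in Cy5 only. Its dye-swapped arrays differed in size, with -0.02 and -1.33 in replicate 1, although 6 of 6 arrays were below 0. The second partner, PRPSAP2, had 0.09 at its brightest probe and -0.47 at its other probe (limma adjusted p = 0.030 among probes).

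Of the enzymes that carry PRPP to IMP, 7 of 8 were tested with PRPS1 and PRPS2 included. Of these, 2 were called higher and 0 lower, against 17.2% and 18.0% of all genes, and the median was 0.02. ADSL, adenylosuccinate lyase, which cleaves an intermediate of IMP synthesis and again an intermediate between IMP and AMP, was the other called gene. Its levels were 10.46, 11.11 and 10.87 at 0 h and 11.54, 11.59 and 11.21 at 6 h, so the groups did not overlap. The mean ratio was 0.64 ± 0.39 (SD, n = 3, adjusted p = 0.0383), with the largest share from replicate 1 at 1.08, against 0.48 and 0.34 in replicates 2 and 3. It lost its call without any 1 of the replicates, at 0.41 without replicate 1 (adjusted p = 0.0525), 0.71 without replicate 2 (0.0864) and 0.78 without replicate 3 (0.0582). Oocyte markers, of which 6 of 10 were tested, 5 of them only through 6 h, and 0 called, had medians of 1.80, 0.84 and -1.12 in replicates 1, 2 and 3. Their summed linear level ranged from 1460 to 9554 at 0 h and from 2416 to 4591 at 6 h, and their part in this result was not tested. Leukocyte markers, of which 3 of 6 were tested, had medians of 0.35, 0.08 and -0.03 in replicates 1, 2 and 3. Their part was not tested either.

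The other tested enzymes from PRPP to IMP were not called. PPAT, which commits PRPP to purine synthesis, had -0.05 ± 0.12 (SD, n = 3). PAICS, which carries out a pair of middle steps, had 0.02 ± 0.14. The 2 genes overlap in the RefSeq annotation of the ARS-UCD2.0 assembly, and their ratios were close in every replicate: -0.12, -0.12 and 0.09 for PPAT and -0.06, -0.06 and 0.18 for PAICS. The difference of PPAT minus PAICS was -0.07 ± 0.02 (exact sign-flip p = 0.25, the smallest possible). A PAICS pseudogene is listed in the same annotation, and whether the PAICS probe also reads it is not known here. GART, which joins the ring and adds a formyl group, had 0.44, -0.23 and 0.02 and a mean of 0.08 ± 0.34. ATIC, which closes the ring to IMP, had 0.10 in replicate 1 but -0.72 and -0.55 in replicates 2 and 3, with a mean of -0.39 ± 0.43 (adjusted p = 0.163). Replicates 2 and 3 alone gave a call for ATIC, at -0.63 (adjusted p = 0.0151). PFAS, the enzyme between GART's steps, exceeded background on 5 arrays at 0 h and on 4 at 6 h, so it was not tested. Its ratio was 0.06.

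The formyl groups used by GART and ATIC come from folate. MTHFD1, which makes formyl-tetrahydrofolate in the cytosol, had 0.54, 0.70 and 0.16, with a mean of 0.47 ± 0.28 (SD, n = 3). It lay just outside the threshold (adjusted p = 0.0527) and was above background on 5 of 6 arrays at 6 h. Among 10 other genes of formate and folate supply, all tested, 1 was higher and 1 lower, against 17.2% and 18.0% of all genes. MTHFD2, a mitochondrial enzyme of folate metabolism, rose by 1.05 ± 0.29 (adjusted p = 0.0053), higher on 6 of 6 arrays. Its other probe, above background on no array, had -0.01. MTHFS, which returns a stored folate to use, fell by 0.60 on the log2 scale (SD 0.16, adjusted p = 0.0138), and its other probe had -0.70. Without replicate 2 the adjusted p of MTHFS was 0.0754.

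Of the 3 measured genes from IMP to GMP, 2 were called lower at 6 h, against 18.0% of all genes. With only 3 genes, this share says little about the branch as a whole. IMPDH1, an isoform of the IMP dehydrogenase that sets the pace of guanine nucleotide synthesis, had levels of 10.65, 10.64 and 10.69 at 0 h and 10.27, 9.50 and 10.15 at 6 h. The 0 h levels were nearly equal, and every 6 h level lay below them, with replicate 2 the lowest. The mean ratio was -0.69 ± 0.40 (SD, n = 3, adjusted p = 0.0308). GMPS, which makes GMP in the next step, had levels of 10.70, 11.06 and 10.90 at 0 h and 10.38, 10.17 and 10.18 at 6 h. Those groups did not overlap either, and the mean ratio was -0.65 ± 0.29 (adjusted p = 0.0217).

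IMPDH2, the isoform that many dividing cells favour, was not called, with ratios of 0.15, -0.11 and -0.15 (mean -0.04 ± 0.16, SD, n = 3, adjusted p = 0.83). IMPDH1 minus IMPDH2 was -0.65 ± 0.34 and below 0 in 3 of 3 replicates (exact sign-flip p = 0.25, the smallest possible). IMPDH1 and GMPS lost their calls without replicate 2 and without replicate 3: without replicate 2 they had -0.47 (adjusted p = 0.114) and -0.52 (0.111), and without replicate 3 -0.76 (0.0791) and -0.60 (0.0953). ADSS, the first enzyme from IMP to AMP, had no probe under that name.

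Pyrimidine synthesis, with all 5 of its listed genes tested, had 1 gene higher and 1 lower, against 17.2% and 18.0% of all genes. The median was 0.10, but the class medians of 0.58, 0.02 and 0.12 differed between replicates. UMPS, which joins the pyrimidine ring to PRPP and makes UMP, had levels of 9.35, 9.85 and 9.59 at 0 h and 10.81, 10.80 and 10.09 at 6 h. The groups did not overlap, and the rise was largest in replicate 1. The ratios were 1.46, 0.95 and 0.50, with a mean of 0.97 ± 0.48 (SD, n = 3, adjusted p = 0.0170), or 1.96-fold. Without replicate 2 the value was 0.98 and the adjusted p 0.0565. The oocyte and leukocyte marker medians given beside ADSL were likewise highest in replicate 1 and lowest in replicate 3, and their part was not tested. The enzymes before UMPS were not called. CAD, which carries out the first steps, had 0.32 ± 0.27 (adjusted p = 0.138). DHODH, which oxidises the ring at the inner mitochondrial membrane, had 0.45, 0.02 and -0.50 (mean -0.01 ± 0.47, adjusted p = 0.98).

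CTP synthetase, which makes CTP from UTP, had its 2 isoforms on opposite sides of the test. CTPS2 (probe EMBV3_35072) had levels of 11.34, 11.21 and 11.33 at 0 h and 10.51, 10.21 and 10.47 at 6 h. The levels within a time lay close together and the groups were far apart, with a mean ratio of -0.90 ± 0.09 (SD, n = 3, adjusted p = 0.0036), or 1.86-fold lower. The other CTPS2 probe, above background on all 6 arrays at 0 h but 4 at 6 h, had -0.05 (limma adjusted p = 0.728 among probes), so the probes of this gene disagree. That other probe was dim, with a highest raw intensity of 247 against 2995 for the first. CTPS1, named CTPS on the platform, had 0.58, -0.41 and 0.12 (mean 0.10 ± 0.49, adjusted p = 0.76). The difference of CTPS1 minus CTPS2 was 1.00 ± 0.41, above 0 in 3 of 3 replicates (exact sign-flip p = 0.25, the smallest possible).

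**Figure D2:**
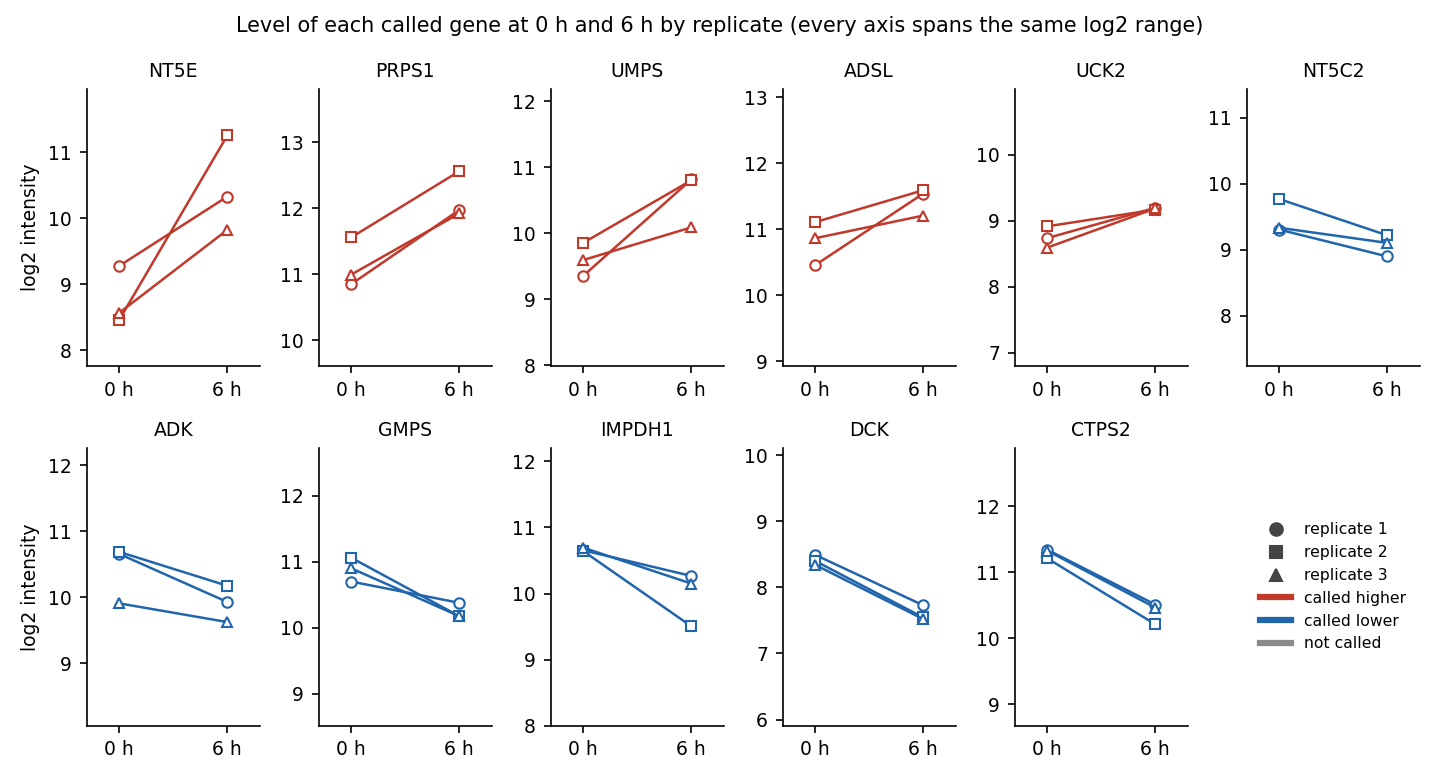
Level at 0 h and 6 h (log2 intensity, y axis) of the 11 called genes, 1 line per replicate; every panel spans the same log2 range but starts at its own value. At 10 of the 11 genes the 0 h and 6 h levels do not overlap, and those of ADK do; levels did not overlap for 89.5% of all called genes and 42.9% of all tested genes (35.2% called).

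Salvage genes, of which all 6 were tested, were split between 1 higher and 2 lower, against 17.2% and 18.0% of all genes. Their median was -0.10. DCK, which phosphorylates deoxycytidine and the purine deoxynucleosides, had levels of 8.49, 8.40 and 8.34 at 0 h and 7.73, 7.54 and 7.52 at 6 h. The groups were separate, and the ratios of -0.77, -0.86 and -0.82 gave a mean of -0.81 ± 0.05 (SD, n = 3, adjusted p = 0.0042), or 1.76-fold lower. The size differed between dye orientations: arrays with 6 h RNA in Cy3 gave -1.07, -1.06 and -1.16, and those with it in Cy5 gave -0.46, -0.65 and -0.49. The other 2 DCK probes were dim, above background on no array at 6 h, with untested ratios of -0.16 and -0.21.

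ADK, which turns adenosine back into AMP, was lower as well. Its ratios were -0.73, -0.51 and -0.28, with a mean of -0.51 ± 0.22 (SD, n = 3, adjusted p = 0.0308). Its levels ran from 9.91 to 10.69 at 0 h and from 9.63 to 10.18 at 6 h, so the groups overlapped, although each replicate fell. One ignored spot was dropped for ADK, on the replicate 2 array with 6 h RNA in Cy3, so 5 arrays were used. UCK2, which phosphorylates uridine and cytidine, rose from levels of 8.74, 8.92 and 8.60 to 9.20, 9.17 and 9.19. Its mean ratio was 0.44 ± 0.17 (adjusted p = 0.0374). Its paralogue UCK1 had -0.24 ± 0.20 (adjusted p = 0.188), and UCK1 minus UCK2 was -0.68 ± 0.04 with little spread over the replicates (exact sign-flip p = 0.25, the smallest possible). ADK and UCK2 each lost the call without any 1 replicate, at adjusted p from 0.0536 to 0.127 for ADK and from 0.0697 to 0.171 for UCK2.

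The enzymes that salvage free purine bases were not called. HPRT1, which recovers hypoxanthine and guanine, had -0.19, 0.30 and 0.03 (mean 0.05 ± 0.25, SD, n = 3, adjusted p = 0.82). APRT, which recovers adenine, had the highest mean among the uncalled genes, at 0.68 ± 0.77, from replicates at -0.14, 0.79 and 1.40. Its adjusted p was 0.130. Replicates 2 and 3 alone gave 1.09 (adjusted p = 0.0080). With the arrays kept apart and the replicate as a block, APRT had an adjusted p of 0.0455. The other APRT probe, above background on all 6 arrays at both times, had 0.02. It was dim, with a highest raw intensity of 358 against 2777 for the brightest APRT probe.

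In phosphate transfer, where kinases raise monophosphates to triphosphates, 1 of 4 listed genes had a probe under its name. CMPK1, the kinase of UMP and CMP, had 0.24, 0.42 and 0.18 (mean 0.28 ± 0.12, SD, n = 3, adjusted p = 0.105), with 0.02 and 0.41 at its other probes. NME1, NME2 and AK4 had none. The older symbol AK3L1 is a name of both AK3 and AK4 in RefSeq and was left outside the counts. Its 5 probes ranged from -0.46 to 0.05, and the brightest had -0.17 ± 0.33 (adjusted p = 0.455). The probe EMBV3_37338 had -0.46, with an adjusted p of 0.025 among probes.

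Among the genes of breakdown and interconversion, 4 of 9 could be tested. NT5E (CD73), the cell surface enzyme that turns extracellular AMP into adenosine, had the largest change of the tested members. Its levels at 0 h were 9.28, 8.46 and 8.57, and at 6 h 10.33, 11.26 and 9.83. All 6 h levels exceeded all 0 h levels, and replicate 2 went from the lowest level at 0 h to the highest at 6 h. The ratios of 1.05, 2.80 and 1.26 gave a mean of 1.70 ± 0.95 (SD, n = 3, adjusted p = 0.0178), or 3.25-fold, and 1.15 without replicate 2 (adjusted p = 0.0122). NT5E also marks mesenchymal stromal cells in humans. Of 5 theca and stroma markers tested out of 8, 4 were called higher, against 17.2% of all genes: PDGFRA, LUM, TCF21 and DCN. The listed theca cell genes, CYP17A1 and INSL3, had a probe but were not tested, so these calls concern stroma markers. Among the called genes, DCN exceeded background on 6 arrays at 6 h but on 2 at 0 h. It therefore passed the filter only through the time at which it is high. The list's summed linear level went from between 4032 and 4557 at 0 h to between 10226 and 11468 at 6 h. PDGFRA, with mean levels of 10.60 at 0 h and 12.52 at 6 h, weighs heavily in that sum. Of 9 granulosa markers tested, 6 were called lower, against 18.0% of all genes, and AMHR2 exceeded background on 2 arrays at 6 h. The summed level of the granulosa list went from between 113880 and 121311 to between 83580 and 91801. Among its bright genes, FST went from a mean level of 14.79 to 13.45, and INHA and INHBA were not called. The part of these cell types in the NT5E result was not tested.

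NT5C2, a cytosolic nucleotidase that prefers IMP and GMP, was the called member nearest to the threshold. Its levels of 9.30, 9.77 and 9.33 at 0 h went to 8.90, 9.22 and 9.10 at 6 h, without overlap. The mean ratio was -0.40 ± 0.16 (SD, n = 3, adjusted p = 0.0467), and without any 1 replicate the call was lost (adjusted p from 0.0835 to 0.250). AMPD2, which deaminates AMP to IMP, had -0.12 ± 0.07. DCTD, which deaminates dCMP to dUMP, had -0.21 ± 0.39. The deaminase genes ADA and AMPD3 and the uridine phosphorylase gene UPP1 did not reach background on all arrays of either time, with untested ratios between -0.03 and 0.09. TYMP and PNP had no probe under their names. The symbol NP is an older name of both PNP and ZNF384 in RefSeq. Its probe had 0.39, 0.09 and 0.56, with a mean of 0.35 ± 0.24 (adjusted p = 0.0959), and it was left outside the counts.

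Set side by side, the classes with more than 1 tested gene had medians between -0.16 and 0.10, except the 3 tested genes from IMP to GMP, at -0.65. ADSS, the gene of that class that leads to AMP, had no probe. The 15 tested genes of purine and pyrimidine synthesis had a median of -0.01, with 3 higher and 3 lower. Each is 20% of them, near the 17.2% and 18.0% of all genes. The 10 purine genes among the 15 had a median of -0.04, with 2 in each direction, also 20% each. The step from PRPP to IMP had class medians of 0.10, -0.06 and 0.09 in replicates 1, 2 and 3. The 3 genes from IMP to GMP had -0.32, -0.89 and -0.54, below the steps from PRPP to IMP in each replicate. Salvage had -0.18, -0.10 and -0.03, and breakdown and interconversion had 0.01, -0.31 and -0.14. These medians over 3 to 15 genes are descriptions, and no test was made between classes.

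**Figure D3:**
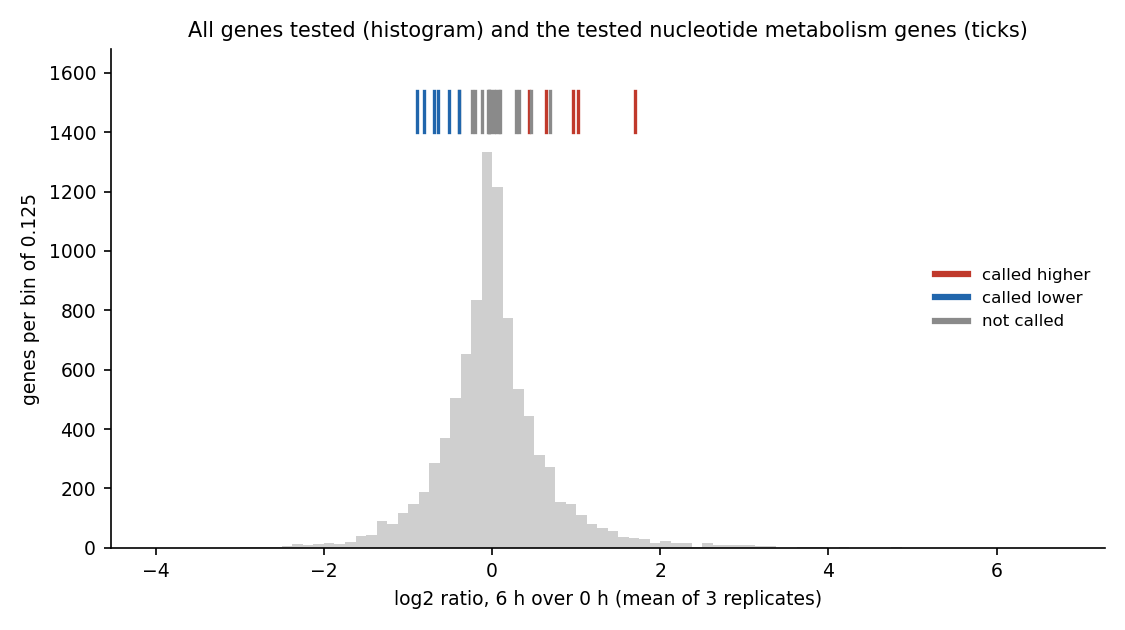
Histogram of the log2 ratio of 6 h over 0 h (x axis, mean of 3 replicates) of all 9217 tested genes, as genes per bin, with the 27 tested genes of nucleotide metabolism as ticks coloured by call. Called members lie on both sides of 0, from -0.90 to 1.70.

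Genes that make or break down deoxynucleotides were mostly lower at 6 h. The list holds SAMHD1 (0.15, not called) and DCTPP1, which break deoxynucleotides down, beside genes of their supply. Of 6 tested out of 8 listed, 4 fell and 1 rose, against 18.0% and 17.2% of all genes, and the median was -0.76. Ribonucleotide reductase turns ribonucleotides into deoxynucleotides, and 2 of its subunit genes fell: RRM2 had -1.27, -1.08 and -1.18 (mean -1.18 ± 0.10, SD, n = 3, adjusted p = 0.0022) and RRM1 had -0.65 ± 0.05 (adjusted p = 0.0077). Another subunit gene, RRM2B, was above background on 4 arrays at each time and was not tested (ratio -0.11). TYMS, which makes dTMP, had -0.86 ± 0.25, and DUT, which removes dUTP, had -0.88 ± 0.26 (adjusted p = 0.0076 each). Other probes of RRM2 gave -1.03, -0.52 and -0.13, those of DUT -0.36 and -0.83, and those of TYMS -0.23 and 0.09. The mean over TYMS probes was not called (-0.33, adjusted p = 0.109). With 6 h RNA in Cy3 only, RRM1 was not called (-0.49, adjusted p = 0.0806). DCTPP1, a dCTP pyrophosphatase that falls outside the naming rule and was chosen after its values were seen, rose by 0.50 ± 0.28 (adjusted p = 0.0434). Its call was lost in 11 of 17 alternatives, among them each fit without 1 replicate (adjusted p from 0.0572 to 0.145).

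Other salvage enzymes and nucleotide kinases, 13 tested of 20 listed, included 1 higher and 3 lower, against 17.2% and 18.0% of all genes. TK1, the cytosolic thymidine kinase of dividing cells, had -0.73, -0.93 and -1.20 (mean -0.95 ± 0.24, SD, n = 3, adjusted p = 0.0054), and was above background on 5 arrays at 6 h. Like DCK, it phosphorylates deoxynucleosides, and both were lower on 6 of 6 arrays. CMPK2, the mitochondrial kinase of UMP and CMP, had 1.13, 2.16 and 1.55 (mean 1.61 ± 0.52, adjusted p = 0.0047), and was above background on 5 arrays at 0 h. The diphosphate kinase family members NME4 and NME7 had -0.77 ± 0.30 (adjusted p = 0.0135) and -0.72 ± 0.44 (0.0336). Without replicate 2, NME4 was not called (adjusted p = 0.0604), nor was NME7 without replicate 3 (0.0870), and the other NME7 probe above background had -0.30.

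Further breakdown enzymes, 10 tested of 19 listed, included 1 higher and 2 lower, against 17.2% and 18.0% of all genes. DPYD, which starts the breakdown of uracil and thymine, had -1.41, -0.80 and -1.01 (mean -1.08 ± 0.31, SD, n = 3, adjusted p = 0.0055), and was above background on 5 arrays at 6 h. Its other probes were dim, with -0.21 and -0.12. The nucleotidases that act on deoxynucleotides differed in direction: NT5C, in the cytosol, rose by 0.77 ± 0.28 (adjusted p = 0.0123), and NT5M, in mitochondria, had -0.75 ± 0.38 (0.0227). Without replicate 3, NT5C was not called (adjusted p = 0.0580), nor was NT5M without replicate 2 (0.102). Around NT5E at the cell surface, 11 of 22 genes for extracellular nucleotides, nucleoside carriers and adenosine receptors were tested. By limma, 0 were called higher and 1 lower, against 17.2% and 18.0% of all genes. The gene called lower, the ectoenzyme ENPP4, had -0.70 ± 0.47 with 5 of 6 arrays below 0 (adjusted p = 0.0409) and -0.05 and -0.17 at its other probes. The call of ENPP4 was lost in the fit without replicate 1 (-0.49, adjusted p = 0.0808) and in that without replicate 3 (-0.66, 0.142).

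**Figure D4:**
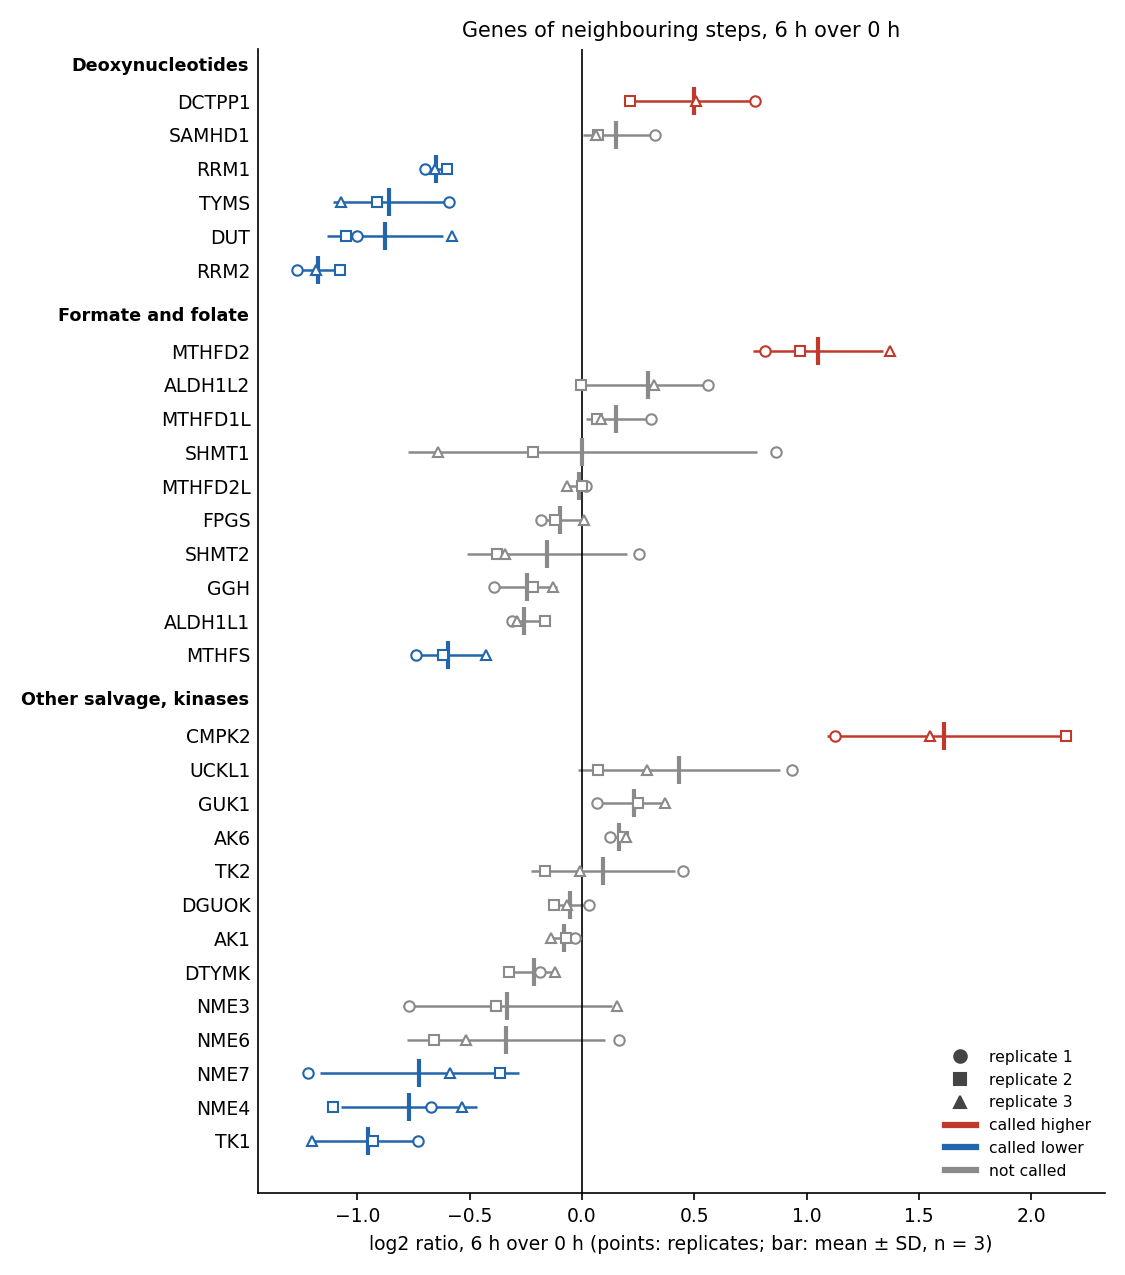
Log2 ratio of 6 h over 0 h (x axis) for the tested genes of deoxynucleotide supply and breakdown, formate and folate supply, and other salvage and kinases. Open symbols are the 3 replicates, the thick tick is the mean, the bar spans ± 1 SD, and colour marks the call. RRM2, TYMS, DUT, RRM1 and TK1 lie below 0 in every replicate, and CMPK2 and MTHFD2 lie above it.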

How the data were processed

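The authors deposited the raw intensity of each spot in both channels, on a linear scale and without background subtraction per the file headers. They also deposited a matrix of normalised log2 ratios, whose method the sources used here do not give and which served as an alternative. Spots were corrected with normexp (offset 50) and loess, control and ignored spots being left out, and each dye swap was averaged to 1 ratio of 6 h over 0 h (n = 3). Levels also had Aquantile scaling. Probes were tested where they exceeded the mean + 2 SD of 153 negative controls on all 6 arrays at 0 h or at 6 h (20831 of 43794 probes). For this filter, an ignored spot counted as above background. Of all probes, 21790 carried 1 symbol and the others several or none. Of 15229 symbols, 982 were updated through RefSeq and 133 kept unmatched. The brightest tested probe stood for a gene. Ratios were tested against 0 with limma 3.58.1 in R 4.3.3 (lmFit, eBayes, two-sided). The procedure was also run on simulated data, with known changes in far fewer genes than were called here. Its outcome is not given here. Replicates pair by array. Named were every member, including the 2 nearest to 0.05 on either side (NT5C2 and ADSL, MTHFD1 and CMPK1), and up to 4 called genes of each neighbouring list with the smallest p. The members and lists were chosen with earlier results of these data known. The number of arrays limits the precision. Probe sequences were not used here.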

Additional observations from a re-analysis of the deposited data

Results flagged for a closer look

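On 1 array, DHODH stood apart from its other arrays. The array of replicate 1 with 6 h RNA in Cy5 had a log2 ratio of 1.27, while the other 5 arrays lay between -0.63 and 0.04. The gap to the nearest array took up 0.648 of the whole range, above Dixon's critical value for 6 values. The dye-swapped array of the same replicate had -0.37. The 27 tested genes were each examined over 6 arrays, chance marks about 1 in 20, and the arrays come in dye-swap pairs.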

How the results depend on the processing

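Of 17 alternatives, 16 were planned and 1 was chosen after seeing the data. PRPS1, CTPS2, DCK and NT5E kept call and direction in all 17, the other 7 called genes lost the call in at least 1, and none turned its direction. Besides ATIC and APRT, CMPK1 was called where 6 h RNA was in Cy5 only (adjusted p = 0.0298), and MTHFD1 in 4 alternatives (adjusted p from 0.0324 to 0.049). With 1 replicate left out, genes called over all genes ranged from 1695 to 3203 against 3243, members called higher from 2 to 4 against 5, members lower from 2 to 5 against 6, and the median of tested members from -0.11 to 0.0185. The median of breakdown genes was -0.0034 with no filter on dim probes, which adds 3 genes. The phosphate transfer median, that of CMPK1 alone, was 0.0406 with 6 h RNA only in Cy3 and 0.52 only in Cy5. With AK3L1 taken as AK4 and NP as PNP it was 0.0542, the midpoint of CMPK1 and AK3L1. The salvage median was 0.10 with 6 h RNA only in Cy3, where ADK could not enter. With the arrays kept apart and a replicate block (estimated correlation 0.491), 11 of 11 calls were kept, the count of genes called was 3669, and APRT was called too. A slide or scan block was not run, since the file headers give neither. The causes of these changes were not tested. Signal over background limits 4 members that could not be tested.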
